A study of Mus musculus with 8 samples.

Results

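The Cyp2d genes encode cytochromes P450 of the endoplasmic reticulum that oxidise drugs, plant alkaloids and steroids. Here they are the 7 protein-coding genes Cyp2d9, Cyp2d10, Cyp2d11, Cyp2d12, Cyp2d22, Cyp2d26 and Cyp2d40, chosen by name: rows of a liver read count table whose Ensembl ID carries that symbol in the GRCm38 annotation. These are 7 of 49671 genes in the table, and all 7 were among the 13117 genes tested. The data are counts of RNA-seq reads per gene from 8 mouse liver libraries, from WT and NT-KO mice of both sexes with 2 libraries in each of the 4 groups. WT and NT-KO mice were labelled C57BL/6 (C57BL/6N in the methods) and taken after weaning, and no treatment is named for any group. NT-KO mice carry on both alleles a CRISPR/Cas9 deletion around the start codon of Lbr, which encodes the lamin B receptor, a protein of the inner nuclear membrane with sterol reductase activity. According to the methods, a single edited male bred with WT females of strain C57BL/6N gave rise to the colony, which was kept by crosses between heterozygotes. The labels number the samples within each group and do not say whether each is 1 animal, so p-values measure only the spread between these samples.

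The enzymes of this family receive their electrons from the reductase Por and, in part, from cytochrome b5, and each holds a heme group at its active site. In mice the family grew by local gene duplication into a cluster of closely related genes, while humans have a single working gene of the family that is known for its part in drug clearance. Cyp2d9 is known as a testosterone hydroxylase of the male mouse liver, where the pulsed release of growth hormone sets many sex differences through Stat5b. Cyp2d22 is often taken as the mouse gene nearest to the human enzyme.

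The cluster spans 424 kb of chromosome 15 (GRCm38). From the low to the high coordinate the members are Cyp2d22 (chr15:82370527-82380260, minus strand), Cyp2d11 (chr15:82389154-82394022, minus strand), Cyp2d10 (chr15:82402846-82407195, minus strand), Cyp2d9 (chr15:82433437-82456845, plus strand), Cyp2d12 (chr15:82555072-82560403, plus strand), Cyp2d40 (chr15:82759833-82764183, minus strand) and Cyp2d26 (chr15:82790101-82794294, minus strand). The annotation lists 18 Cyp2d genes, most of the others pseudogenes. Of these, 10 are in the count table: the 7 members, Cyp2d34, Cyp2d37-ps and Cyp2d41-ps. The coding sequences of Cyp2d9, Cyp2d10, Cyp2d11 and Cyp2d12 were alike, with 90.8% identity between Cyp2d11 and Cyp2d12 as the lowest value among them and 94.7% between Cyp2d10 and Cyp2d11 as the highest. Cyp2d22 was further away, at 78% to 79.8% identity to those 4, and Cyp2d26 lay at 81.3% to 82.2%. Cyp2d40 could be compared over 1017 aligned bases only, the length of its longest complete coding sequence, and was 83.5% to 85.3% identical to the others there.

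Such likeness bears on how reads are counted. Of all 50-base stretches in the transcripts of Cyp2d11, 37.2% also occur in another gene, and 26.9% occur in Cyp2d10. For Cyp2d10 the share was 35.8%, for Cyp2d9 21.8%, for Cyp2d40 14.5%, for Cyp2d26 9.49%, for Cyp2d12 7.61% and for Cyp2d22 4.13%. The sources used here do not state how reads that match several genes were counted, so values of Cyp2d10 and Cyp2d11 in particular are uncertain as to which of them a read came from. The only annotated gene that overlaps a member on the opposite strand is a processed pseudogene within Cyp2d9, which is not among the counted genes. On the same strand Cyp2d9 also spans the pseudogenes Gm46501 and Gm49421, which are not counted either. Of the Cyp2d9 stretches 4.61% occur in Gm46501.

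The upstream sequences show how near the copies are. RefSeq promoter windows (GRCm38.p6) were matched for 5 members, Cyp2d9, Cyp2d10, Cyp2d11, Cyp2d26 and Cyp2d40, and not for Cyp2d12 and Cyp2d22. The RefSeq start of Cyp2d9 lies well inside its annotated span. That span begins upstream at 82433437 and was used for distances along the chromosome. Printed here are the 250 bases before the RefSeq start, 5′ to 3′ on the gene's own strand, for the strongly male-biased Cyp2d9, for Cyp2d11 and Cyp2d10, its closest neighbours in sequence, and for Cyp2d26, the most abundant member per length in females. Capitals mark matches to CAAAGNNCA, letters taken for HNF4, and to TATAAA, letters of the TATA box, on either strand.
Cyp2d9 (chr15:82452127-82452376, plus strand): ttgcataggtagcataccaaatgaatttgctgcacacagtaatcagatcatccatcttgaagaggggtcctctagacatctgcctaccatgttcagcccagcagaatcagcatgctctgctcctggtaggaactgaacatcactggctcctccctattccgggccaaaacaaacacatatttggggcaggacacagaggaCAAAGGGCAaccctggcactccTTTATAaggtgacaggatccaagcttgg
Cyp2d11 (chr15:82394023-82394272, minus strand): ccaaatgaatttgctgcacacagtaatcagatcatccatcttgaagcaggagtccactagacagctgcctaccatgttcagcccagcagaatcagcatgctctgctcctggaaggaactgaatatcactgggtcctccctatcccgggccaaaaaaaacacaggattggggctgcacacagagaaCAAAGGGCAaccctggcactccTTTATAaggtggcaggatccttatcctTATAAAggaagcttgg
Cyp2d10 (chr15:82407195-82407444, minus strand): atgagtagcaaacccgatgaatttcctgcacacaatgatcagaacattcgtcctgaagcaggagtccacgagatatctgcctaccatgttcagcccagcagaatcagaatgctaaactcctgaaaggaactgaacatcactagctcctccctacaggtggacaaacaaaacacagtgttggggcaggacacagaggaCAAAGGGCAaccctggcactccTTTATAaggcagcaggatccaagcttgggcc
Cyp2d26 (chr15:82794246-82794495, minus strand): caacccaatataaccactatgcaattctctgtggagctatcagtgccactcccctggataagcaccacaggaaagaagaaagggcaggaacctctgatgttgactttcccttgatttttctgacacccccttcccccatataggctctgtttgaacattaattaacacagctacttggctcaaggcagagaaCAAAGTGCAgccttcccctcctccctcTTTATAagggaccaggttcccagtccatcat

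The Cyp2d9 window was 93.6% identical to that of Cyp2d11 over 234 aligned bases, 85% to that of Cyp2d10 over 246, and 57.8% to that of Cyp2d26 over 230. All 5 windows hold CAAAGNNCA and TATAAA, searched on both strands, against 5.49% and 12.4% of 32851 RefSeq promoter windows of this length. The windows of Cyp2d9, Cyp2d10, Cyp2d11 and Cyp2d40 are 80.2% to 93.6% identical to each other. The 5 are therefore not independent, and enrichment was not tested. None of the 5 holds TTCNNNGAA (letters for STAT5, in 7.02% of all windows), CCGGAAG (GABP, 6.91%), TTGCNNAA (C/EBP, 9.56%) or GTTAATNAT (HNF1, 0.737%). Only exact matches were counted. The Cyp2d9 window holds ttccgg, the other-strand form of CCGGAA, which lacks only the last letter of the GABP pattern. The other printed windows do not hold ttccgg or ccggaa. These are matches of letters within 250 bases and not sites shown to be bound.

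The libraries were deep, with column sums of 61202769 and 45020377 in WT males, 50612282 and 53127151 in NT-KO males, 51983144 and 64396291 in WT females, and 54424067 and 63590534 in NT-KO females. Levels are given as CPM, the read count of a gene scaled to the total of its library with a TMM factor, and 1 count was worth 0.0155 to 0.0222 CPM. The sex labels were matched by Xist (0.728 to 3.20 CPM in the male and 788 to 965 CPM in the female libraries) and by the Y-linked Ddx3y, Eif2s3y, Kdm5d and Uty. Lbr itself was at 8.04 and 6.52 CPM in WT males, 12.8 and 13.6 in NT-KO males, 7.40 and 6.98 in WT females, and 13 and 14 in NT-KO females. Reads from outside the deleted stretch still count, so this level does not check the deletion, and the log2 fold changes of 0.86 in males and 0.91 in females were not called (adjusted p = 0.167 and 1.00, edgeR quasi-likelihood test). Hepatocyte genes were abundant in every library, with albumin (Alb) at a mean of 69670 CPM. Male WT replicate 2 stood apart from the rest: the 15 ER chaperones listed summed to 9922 CPM there, 4542 in male WT replicate 1 and 2827 to 3524 in the other 6 libraries. The members' log2 differences that rest on WT males are therefore also given without that library, while sums and levels per length are means over both.

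Cyp2d9 was the member with the largest sex difference. It was at 1865 and 1381 CPM in WT males, 1772 and 1538 in NT-KO males, 30.5 and 44.5 in WT females, and 18.5 and 28.2 in NT-KO females. All male libraries lay far above all female libraries, and no groups of opposite sex came near each other. In WT, Cyp2d9 was higher in males by 5.43 on the log2 scale (SE 0.34, n = 2 per group, adjusted p = 0.000195 in edgeR's quasi-likelihood test with Benjamini-Hochberg adjustment over all 13117 genes). In NT-KO the difference was 6.14 (SE 0.35, adjusted p = 0.00018), and over both genotypes, with 4 libraries per sex, it was 5.79 (SE 0.25, adjusted p = 1.21e-05), a 55.2-fold higher level in males. Without male WT replicate 2 the WT value was 5.63 (adjusted p = 0.000608).

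Cyp2d12, the other member on the plus strand, followed at a far lower level. It was at 20.2 and 13.5 CPM in WT males and 20.7 and 14.3 in NT-KO males, against 0.839 and 0.663 in WT females and 0.436 and 0.795 in NT-KO females. The female values rest on 25 to 52 counts per library, and all 4 lay below all male values. The log2 difference was 4.49 in WT (SE 0.37, adjusted p = 0.000606), 4.80 in NT-KO (SE 0.37, adjusted p = 0.000598) and 4.65 over both genotypes (SE 0.26, adjusted p = 4.36e-05). Leaving out male WT replicate 2 gave 4.74 in WT (adjusted p = 0.00155). Cyp2d12 reached 1 CPM in 4 male and 0 female libraries, so it passed the filter on low counts through the males alone.

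Cyp2d11 showed a smaller difference near the lower limit of what was tested. Its levels were 1.95 and 2.63 CPM in WT males, 2.16 and 1.72 in NT-KO males, 0.967 and 0.589 in WT females, and 0.663 and 0.872 in NT-KO females. The sexes did not overlap, but the counts were only 90 to 112 in male and 38 to 57 in female libraries. The log2 difference was 1.56 in WT (SE 0.35, adjusted p = 0.0414), 1.32 in NT-KO (SE 0.35, adjusted p = 0.158) and 1.44 over both genotypes (SE 0.25, adjusted p = 0.0122). The call in WT was lost in 8 of 16 alternative settings, among them without male WT replicate 2 (1.33, adjusted p = 0.152), without male WT replicate 1 (adjusted p = 0.0696), without female WT replicate 1 (0.0934) and without female WT replicate 2 (0.214). It was also lost when either replicate of the NT-KO females was left out (0.0632 for replicate 1, 0.0652 for replicate 2). Over both genotypes it was lost without female WT replicate 2 (adjusted p = 0.0503) and without female NT-KO replicate 1 (0.0575). Cyp2d11 shares 26.9% of its 50-base stretches with the abundant Cyp2d10 and 7.01% with Cyp2d9, and Cyp2d12 shares 4.94% with Cyp2d9. Reads of Cyp2d9 or Cyp2d10 assigned to these low genes cannot be told apart from their own.

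**Figure D1:**
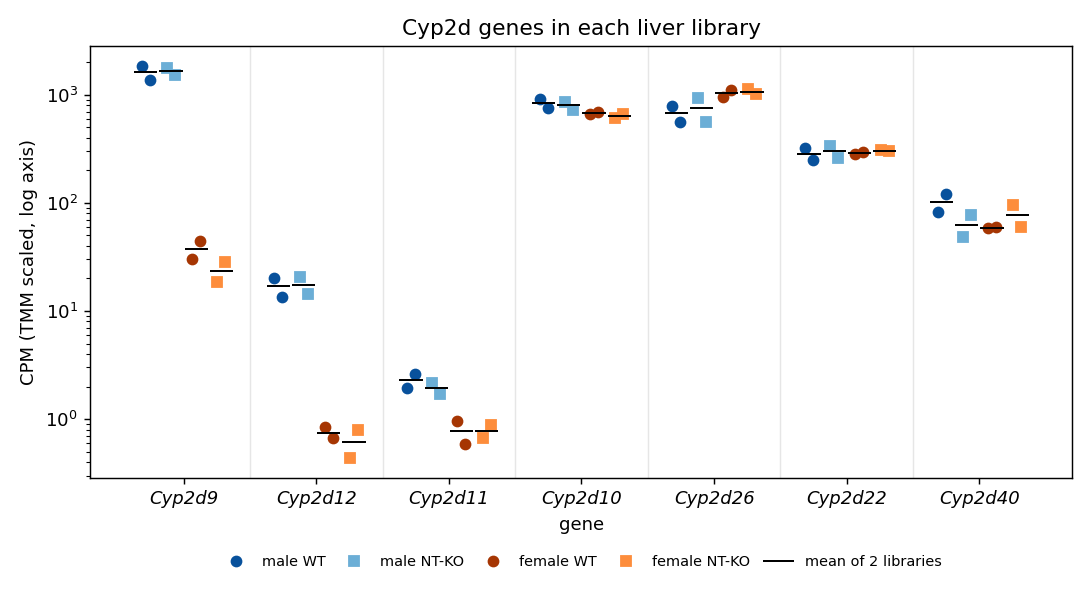
CPM of the 7 Cyp2d genes (x axis) in each of the 8 libraries on a log axis, as points coloured by group, with a black line at the mean of the 2 libraries. Cyp2d9 and Cyp2d12 separate by sex by far more than replicates differ, the gap is small for Cyp2d11 (1.72 CPM in the lowest male and 0.967 in the highest female library), and the other 4 genes show no gap of that size, running for example from 614 to 910 CPM for Cyp2d10 and from 48.3 to 122 CPM for Cyp2d40.

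The other 4 members had no called difference between the sexes. Cyp2d10, in spite of its likeness to Cyp2d9 and Cyp2d11, was at 910 and 759 CPM in WT males, 864 and 731 in NT-KO males, 669 and 696 in WT females, and 614 and 658 in NT-KO females. Every male library was above every female library, but by little: the log2 difference was 0.29 in WT (SE 0.19, adjusted p = 0.356), 0.32 in NT-KO (SE 0.19, adjusted p = 0.706) and 0.30 over both genotypes (SE 0.13, adjusted p = 0.189). Cyp2d26 went the other way, with 793 and 556 CPM in WT males, 929 and 566 in NT-KO males, 962 and 1098 in WT females, and 1130 and 1014 in NT-KO females. All males were below all females, with log2 differences of -0.61 (SE 0.28, adjusted p = 0.200), -0.53 (SE 0.28, adjusted p = 0.637) and -0.57 (SE 0.20, adjusted p = 0.113) in WT, in NT-KO and over both genotypes. With male WT replicate 2 left out, the WT values were 0.41 for Cyp2d10 and -0.38 for Cyp2d26, neither of them called.

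Cyp2d22 had nearly the same level everywhere. It was at 319 and 248 CPM in WT males, 339 and 262 in NT-KO males, 285 and 293 in WT females, and 310 and 300 in NT-KO females. The female values lay within the male range of 248 to 339 CPM, and the log2 difference over both genotypes was -0.03 (SE 0.14, adjusted p = 0.917), while in WT it was -0.03 with and 0.14 without male WT replicate 2, not called either way. Cyp2d40 varied more between replicates, with 81.5 and 122 CPM in WT males, 48.3 and 77.0 in NT-KO males, 58.7 and 59.7 in WT females, and 96.0 and 59.4 in NT-KO females. The sexes overlapped, and the log2 difference was 0.78 in WT (SE 0.31, adjusted p = 0.157), -0.32 in NT-KO (SE 0.31, adjusted p = 0.876) and 0.23 over both genotypes (SE 0.22, adjusted p = 0.540). Without male WT replicate 2 its WT difference was 0.45 (adjusted p = 0.516).

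Read over the family, 3 of 7 members were called as higher in males in WT (adjusted p of at most 0.05 and a log2 fold change over 1), where 2.13% of all 13117 tested genes were called higher in males and 2.55% higher in females. Of all WT calls 45.4% were higher in males, and 25.5% with library size as the only scaling, which moved the median of all genes from 0.00 to -0.18 on the log2 scale. In NT-KO 2 of 7 were called higher in males, against 0.945% of all genes, and 0.839% were called higher in females. Over both genotypes these were 3 of 7 against 1.95%, with 2.24% of all genes higher in females, and 46.5% of all calls were higher in males, or 34.3% with library size only. No member was called higher in females in any of the 3 comparisons, and 4 of 7 in WT, 3 of 7 in NT-KO and 4 of 7 over both genotypes had an unadjusted p under 0.05, as did 27%, 9.81% and 26.9% of all genes. In WT the median log2 difference of the members was 0.78 (0.45 without male WT replicate 2), in NT-KO it was 0.32 and over both genotypes 0.30, and that of all tested genes was near 0 in each. Without male WT replicate 2 the log2 differences over both genotypes were 5.89 for Cyp2d9 (adjusted p = 3.85e-05), 4.77 for Cyp2d12 (1e-04) and 1.33 for Cyp2d11 (0.038), all still called. For the members not called they were 0.36 for Cyp2d10, 0.05 for Cyp2d22, -0.46 for Cyp2d26 and 0.07 for Cyp2d40. All 4 male libraries were above all 4 female libraries for 4 members, as for 7.78% of all tested genes, and below them for Cyp2d26 alone, as for 8.26%. These shares are a description, since Cyp2d11 and Cyp2d12 passed the filter because of their male libraries. In whole liver RNA, fewer cells that make a transcript and less transcript per cell cannot be told apart.

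**Figure D2:**
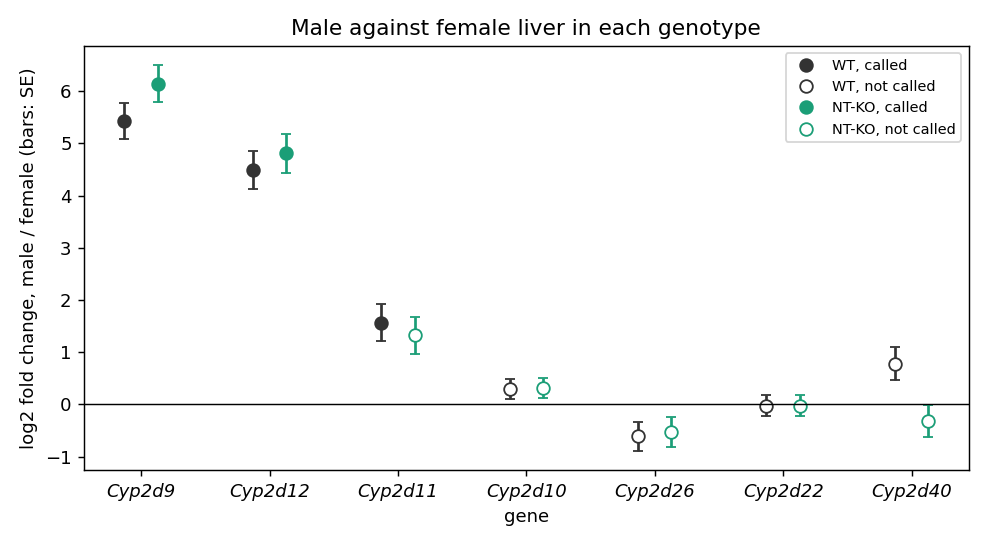
Log2 fold change of male over female liver (y axis) for each Cyp2d gene (x axis) in WT and in NT-KO, with bars of 1 SE; filled points were called and open points were not. Cyp2d9 (5.43 and 6.14) and Cyp2d12 (4.49 and 4.80) stand high in both genotypes, Cyp2d11 was called in WT only, and Cyp2d26 lies below 0 in both.

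Whether the sex difference of the called members depended on genotype was tested directly, and no such difference was called. For Cyp2d9 the difference of the 2 sex effects was 0.71 on the log2 scale (SE 0.40, adjusted p = 0.724), for Cyp2d12 0.32 (SE 0.48, adjusted p = 0.901) and for Cyp2d11 -0.24 (SE 0.49, adjusted p = 0.929). Leaving out male WT replicate 2 gave 0.51, 0.06 and 0.00 for the 3 genes (adjusted p = 0.855, 0.986 and 1.00). That Cyp2d11 was called in WT and not in NT-KO is therefore not a shown difference between them.

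The makeup of the family followed from these values. Summed over the 7 members, male livers held 3560 ± 490 CPM (SD, n = 4) and female livers 2108 ± 88.2 CPM (SD, n = 4), and the lowest male library (3083 CPM) was above the highest female library (2193 CPM). Without Cyp2d9 the sums were 1921 ± 283 CPM (SD, n = 4) in males and 2078 ± 86.8 CPM (SD, n = 4) in females, and they overlapped. Cyp2d9 held 45.8% ± 1.38 (SD, n = 2) of the family's counts in WT males, 46.4% ± 2.56 (SD, n = 2) in NT-KO males, 1.78% ± 0.361 (SD, n = 2) in WT females and 1.11% ± 0.363 (SD, n = 2) in NT-KO females. The 7 genes took 0.291% to 0.385% of all counts in male libraries and 0.212% to 0.231% in female libraries.

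**Figure D3:**
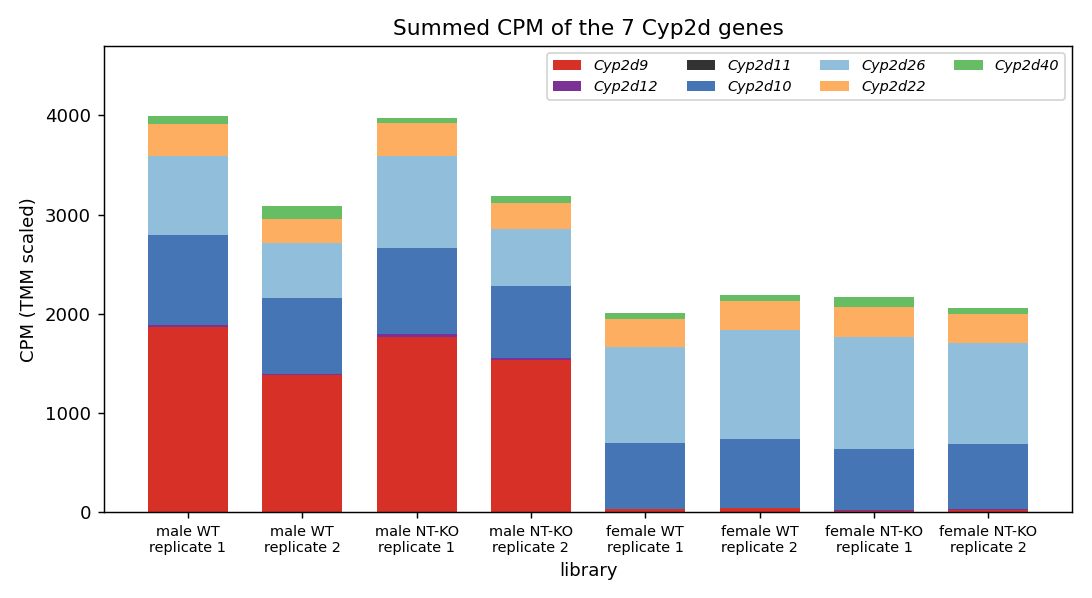
Summed CPM (y axis, linear, from 0) of the 7 Cyp2d genes in each library, stacked by gene. Male bars reach 3083 to 3991 CPM and female bars 2008 to 2193 CPM, and the Cyp2d9 segment holds 44.6% to 48.2% of the family's counts in male and 0.852% to 2.03% in female libraries.

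Levels of different genes are compared per length, as RPKM over the merged exons. In WT males the order was Cyp2d9 at 611 ± 129 RPKM (SD, n = 2), Cyp2d10 at 507 ± 64.8, Cyp2d26 at 376 ± 93.2, Cyp2d22 at 72.6 ± 12.9, Cyp2d40 at 56.4 ± 16, Cyp2d12 at 4.34 ± 1.22 and Cyp2d11 at 1.44 ± 0.303. The libraries of Cyp2d9 and Cyp2d10 overlapped there, as did those of Cyp2d22 and Cyp2d40. In NT-KO males the order was the same, with overlap between Cyp2d10 (484 ± 57.0) and Cyp2d26 (417 ± 143). In WT females Cyp2d26 led with 575 ± 53.8 RPKM, before Cyp2d10 (414 ± 11.5), Cyp2d22 (74.0 ± 1.42), Cyp2d40 (32.8 ± 0.392), Cyp2d9 (14.1 ± 3.73), Cyp2d11 (0.489 ± 0.168) and Cyp2d12 (0.194 ± 0.0321). Female NT-KO had the same order as WT females, from 598 ± 45.8 RPKM for Cyp2d26 to 0.159 ± 0.0654 for Cyp2d12, and in both female groups no neighbours in the order overlapped. With the length of the longest coding transcript in place of merged exons the order was the same, but the libraries of Cyp2d9 (948 RPKM) and Cyp2d10 did not overlap in WT males, those of Cyp2d10 and Cyp2d26 did, and Cyp2d11 and Cyp2d12 overlapped in both female groups. Cyp2d9 thus ranked 1st of 7 in males and 5th in females, in both genotypes.

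Setting NT-KO beside WT asks, for each sex, what the Lbr deletion goes along with in liver RNA. For the Cyp2d genes, no member was called between NT-KO and WT in males (0 of 7, against 0.0152% of all tested genes in either direction), in females (0 of 7, against 0.00762%), or for the difference between the sexes (0 of 7, against 0.0152%). At an unadjusted p under 0.05 these were 0, 1 and 1 of 7 members, and 11.5%, 1.55% and 7.2% of all genes. The likelihood ratio test of edgeR and DESeq2 also called 0 members in each, though they called more of all genes, 205 and 218 in males, 11 and 5 in females, and 46 and 62 for the difference. With no filter beyond 1 count, 0 members were called in males and in females, and 1, Cyp2d40, for the difference. Of all genes 667, 172 and 552 were then called.

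Cyp2d40 had the largest absolute value in males and for the difference between the sexes, and Cyp2d9 in females. Both male NT-KO libraries (48.3 and 77.0 CPM) lay below both male WT libraries (81.5 and 122 CPM), which on the log2 scale was -0.70 (SE 0.31, unadjusted p = 0.0546, adjusted p = 0.446). In females NT-KO (96.0 and 59.4 CPM) and WT (58.7 and 59.7 CPM) overlapped, with 0.40 (SE 0.31, adjusted p = 1.00), and the difference between the sexes was -1.10 (SE 0.44, unadjusted p = 0.0371, adjusted p = 0.671). Female NT-KO replicate 2 (59.4 CPM) lay between the WT females, so the 0.40 came from female NT-KO replicate 1 alone. That library also enters the difference between the sexes. Without male WT replicate 2 the value in males was -0.37 (adjusted p = 0.887) and the difference between the sexes -0.77 (adjusted p = 0.827). Cyp2d9 in females was lower in both NT-KO libraries (18.5 and 28.2 CPM) than in both WT libraries (30.5 and 44.5 CPM), with -0.68 (SE 0.29, unadjusted p = 0.0431, adjusted p = 1.00). That value depended on single female libraries: leaving out WT replicate 1 or 2 gave -0.93 or -0.39, leaving out NT-KO replicate 1 or 2 gave -0.41 or -1.01, and none of these was called. In males the genotypes overlapped, with 0.03 (SE 0.28, adjusted p = 0.986).

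The remaining members had log2 fold changes from -0.27 to 0.15 with genotype, and some of them depended on single libraries. With 1 library left out, Cyp2d12 in females ran from -0.77 to 0.09 and Cyp2d11 in females from -0.33 to 0.39. Cyp2d26 in males ran from -0.25 to 0.46. In males the log2 fold change was -0.07 for Cyp2d10, -0.24 for Cyp2d11, 0.05 for Cyp2d12, 0.08 for Cyp2d22 and 0.15 for Cyp2d26. In females it was -0.10 for Cyp2d10, -0.01 for Cyp2d11, -0.27 for Cyp2d12, 0.08 for Cyp2d22 and 0.06 for Cyp2d26. None of these had an adjusted p under 0.837. With male WT replicate 2 left out, the values in males were -0.17 for Cyp2d9, -0.19 for Cyp2d10, -0.01 for Cyp2d11, -0.20 for Cyp2d12, -0.08 for Cyp2d22 and -0.08 for Cyp2d26, none of them called. The difference between the sexes was then -0.09 for Cyp2d10, -0.16 for Cyp2d22 and -0.14 for Cyp2d26, against 0.03, 0.00 and 0.08 with that library, and none was called either way. Without overlap between the genotypes among these members were only Cyp2d10 and Cyp2d22, both in females and by small amounts. Cyp2d10 was at 614 and 658 CPM in NT-KO and 669 and 696 in WT. Cyp2d22 was at 310 and 300 CPM in NT-KO and 285 and 293 in WT. The share of all tested genes whose genotypes did not overlap was not counted. These separations, like those of Cyp2d40 in males and Cyp2d9 in females, are therefore only a description.

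**Figure D4:**
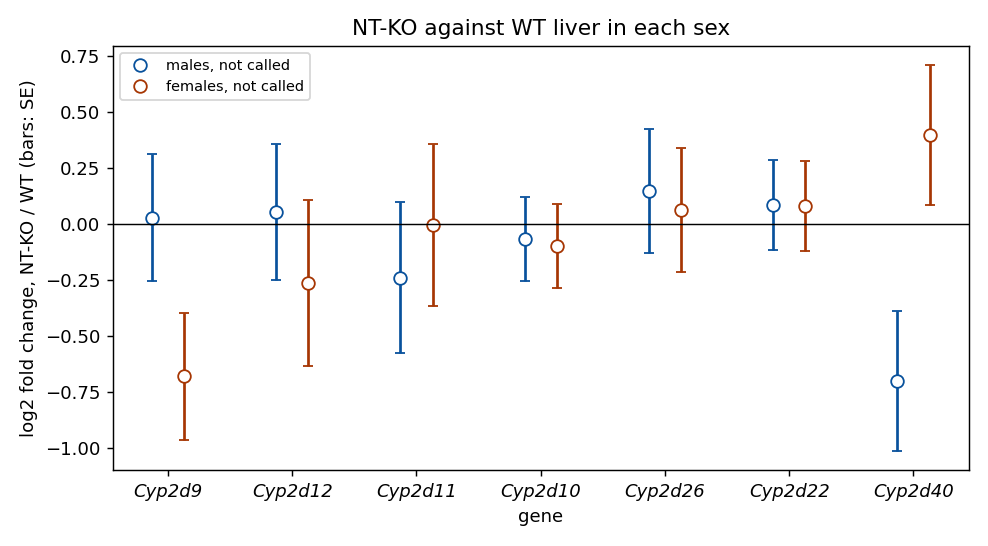
Log2 fold change of NT-KO over WT liver (y axis) for each Cyp2d gene (x axis) in males and in females, with bars of 1 SE; all points are open because none was called. Values run from -0.70 (Cyp2d40 in males) to 0.40 (Cyp2d40 in females).

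Replicates of the members differed by 1.01- to 1.75-fold within groups. Among the members, the SD of log2 CPM over the 4 male libraries was lowest for Cyp2d10 (0.146) and highest for Cyp2d40 (0.551), and over the 4 female libraries it was lowest for Cyp2d22 (0.0532) and highest for Cyp2d9 (0.514).

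Other annotated genes of the family gave values of the same kind. Cyp2d41-ps, a pseudogene between Cyp2d40 and Cyp2d26, was at 12.9 and 23.2 CPM in WT males, 14.8 and 10.4 in NT-KO males, 4.36 and 3.86 in WT females, and 3.19 and 3.07 in NT-KO females. It was called higher in males in WT (2.13, SE 0.31, adjusted p = 0.00939), in NT-KO (2.00, SE 0.31, adjusted p = 0.0157) and over both genotypes (2.06, SE 0.22, adjusted p = 0.00101). Without male WT replicate 2, its highest library, the WT value was 1.64 (adjusted p = 0.025) and that over both genotypes 1.82 (adjusted p = 0.00138). The WT call was lost without female WT replicate 1 (0.0551) or replicate 2 (0.0801), and the NT-KO call without male NT-KO replicate 1 (0.082), female NT-KO replicate 1 (0.147) or female NT-KO replicate 2 (0.138). Its neighbour Cyp2d40 shares 8.05% of its 50-base stretches with it. Cyp2d37-ps, at 68.9 to 115 CPM, had a log2 difference of -0.13 (SE 0.16, adjusted p = 0.649) over both genotypes. Cyp2d34, which codes for protein, had 12 to 29 counts per library and was not tested.

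Along the chromosome, genes with and without a called sex difference lay side by side. The members called higher in males over both genotypes, Cyp2d11, Cyp2d9 and Cyp2d12, have Cyp2d10 between them, and the ends of the cluster are held by Cyp2d22 and Cyp2d26. Within 250 kb of the cluster 9 other genes were tested, none of them inside it, and 1 was called by sex over both genotypes: Cenpm, a centromere protein gene, at 0.510 to 1.62 CPM in male and 3.00 to 3.93 CPM in female libraries (-1.67, SE 0.31, adjusted p = 0.0180). Called higher in females were 2.24% of all tested genes, and higher in males 1.95%. Next to Cyp2d22, Ndufa6, a subunit of respiratory complex I, had -0.05 (SE 0.13, adjusted p = 0.850), and Tcf20 next to Cyp2d26 had 0.26 (SE 0.15, adjusted p = 0.299).

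**Figure D5:**
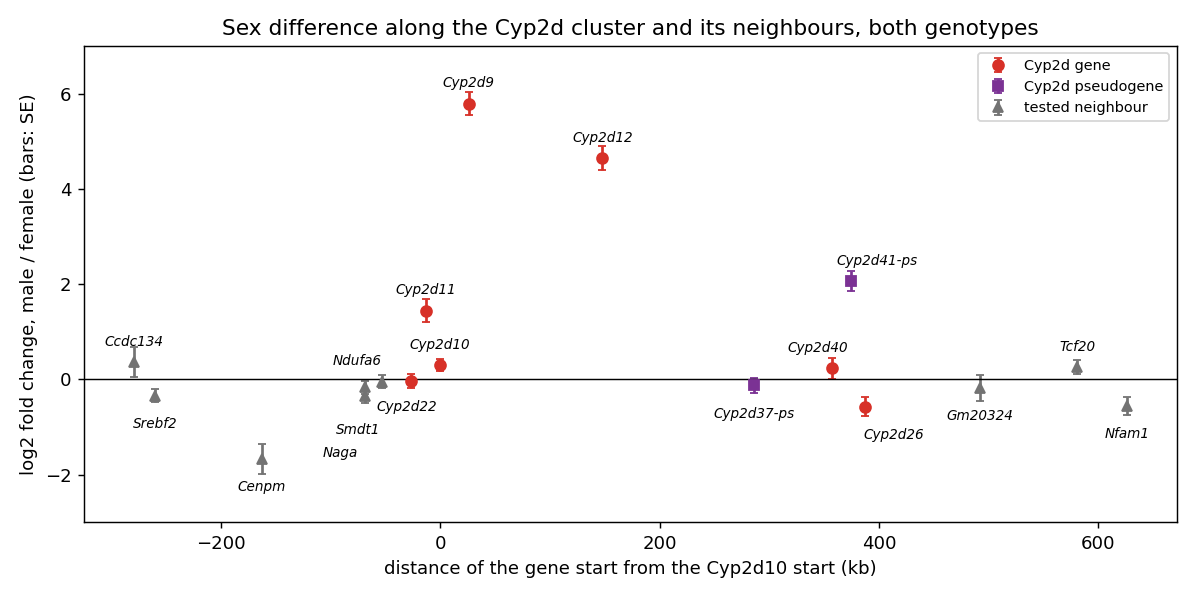
Log2 fold change of male over female liver over both genotypes (y axis, bars of 1 SE) against the distance of each gene's start from that of Cyp2d10 in kb (x axis), for Cyp2d genes, Cyp2d pseudogenes and tested neighbours. Cyp2d9 (5.79), Cyp2d12 (4.65), Cyp2d41-ps (2.06) and Cyp2d11 (1.44) rise above their neighbours, while Cyp2d10 between them is at 0.30.

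Partners of these enzymes were compared next. Of 14 genes for electron supply and heme, all tested, 0 were called by sex in WT, in NT-KO or over both genotypes, and 2 had an unadjusted p under 0.05 over both genotypes, against 26.9% of all genes. Their median log2 difference was -0.03, beside 0.01 for all tested genes. Cytochrome b5 (Cyb5a) had -0.17 (SE 0.14, adjusted p = 0.476), the heme-binding Pgrmc1 0.10 (SE 0.13, adjusted p = 0.672) and the reductase Por -0.35 (SE 0.16, adjusted p = 0.214). Alas1, the rate-limiting enzyme of heme synthesis in liver, was at 362 to 663 CPM in male and 757 to 1225 CPM in female libraries, with no overlap (-0.85, SE 0.25, adjusted p = 0.0727). Every male library was below every female library for 8.26% of all tested genes.

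Over both genotypes 1.95% of all tested genes were called higher in males and 2.24% higher in females. Of 31 regulators tied to P450 genes, all tested, 1 was called higher in males and 4 were called higher in females over both genotypes. An unadjusted p under 0.05 was reached by 13, against 26.9% of all genes, and 16 of the 31 had values above 0 and 15 below, with a median of 0.01. Of these, 4 are named here after their values were seen. The forkhead factor Foxa3 was at 51.1 to 96.2 CPM in male and 17.2 to 34.9 in female libraries (1.67, SE 0.19, adjusted p = 0.00147), and the homeobox factor Cux2 at 0.248 to 0.632 in male and 38.5 to 99.2 in female libraries (-7.28, SE 0.41, adjusted p = 4.36e-05). The prolactin receptor Prlr had -2.60 and Trim24 -1.01. The 4 most abundant were not called: the growth hormone receptor Ghr (0.38, SE 0.13, adjusted p = 0.110), Hnf4a (0.34, SE 0.12, adjusted p = 0.126), Rxra (-0.04, SE 0.14, adjusted p = 0.905) and Cebpa (0.11, SE 0.12, adjusted p = 0.606).

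Lists of known sex-biased liver genes were compared over both genotypes. Of 20 listed male-biased genes 15 were called higher in males and 0 lower, and 1 of the other 5 had a value below 0 (median 3.61), among them the urinary protein genes Mup7 (7.26, SE 0.46, adjusted p = 8.09e-05) and Mup20 (7.25, SE 0.38, adjusted p = 3.59e-05). Of 20 listed female-biased genes 19 were tested and 18 were called higher in females (median -8.44), among them the steroid hydroxylase Cyp2a4 (-5.45, SE 0.25, adjusted p = 1.72e-05). By log2 fold change, Cyp2d9 and Cyp2d12 lay above the median of the male-biased list, and Cyp2d11 lay below it. Of 18 other P450s that act on foreign compounds, 0 were called higher in males and 5 lower, with a median of -0.06. Of all tested genes 1.95% were called higher in males and 2.24% lower. An unadjusted p under 0.05 was reached by 9 of the 18, against 26.9% of all genes, and 7 had values above 0 and 11 below. Of the 4 most abundant, Cyp2e1, which oxidises ethanol, had -0.10 (SE 0.23, adjusted p = 0.815), Cyp3a11 0.51 (SE 0.24, adjusted p = 0.214) and Cyp2c29 0.79 (SE 0.29, adjusted p = 0.131), and Cyp2a5, a coumarin hydroxylase, had -1.27 (SE 0.22, adjusted p = 0.0122).

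Lists of ER chaperones and clock genes were also compared. In WT 2.13% of all tested genes were called higher in males and 2.55% lower. Over both genotypes these shares were 1.95% and 2.24%. None of 15 ER chaperones was called by sex over both genotypes (median 0.67), while 3 were called higher in males in WT, where male WT replicate 2 stands high. Over both genotypes all 15 had values above 0, and 9 had an unadjusted p under 0.05, against 26.9% of all genes. In NT-KO 8 were above 0 and 7 below, and 0 had such a p. Of 13 tested clock genes, 4 were called in WT (2 in each direction), 0 in NT-KO and 1 higher in males over both genotypes. Their part in the Cyp2d values was not tested.

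Markers of other cell types were compared with the same test, over both genotypes. The 8 hepatocyte genes had 0 calls and a median of 0.23, with 5 values above 0 and 3 below. Among them 4 had an unadjusted p under 0.05, against 26.9% of all genes. Kupffer cell markers (0 of 6 called), sinusoidal endothelium (0 of 5) and stellate cells with fibroblasts (0 of 6) had medians of -0.49, -0.37 and -0.02. All 6 Kupffer cell and all 5 endothelial markers had values below 0. In each of these lists 3 had an unadjusted p under 0.05, against 26.9% of all genes. Stellate cell and fibroblast markers had 3 values above 0 and 3 below, and 0 with such a p. Called lower in males were 2.24% of all tested genes. Of 5 cholangiocyte markers 1 was called, Epcam, lower in males (-1.12, SE 0.26, adjusted p = 0.0377), with a list median of -0.48. Sox9 of the same list went the other way, at 1.97 to 4.6 CPM in male and 1.27 to 1.66 CPM in female libraries (1.18, SE 0.30, adjusted p = 0.0518), and was not called. Their sum was 41.3 and 49.0 CPM in WT males, 26.8 and 33.1 in NT-KO males, 41.7 and 50.4 in WT females, and 59.8 and 34.7 in NT-KO females, mostly Spp1, and no marker was at 3 counts or fewer in every library.

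Called lower in males were 2.24% of all tested genes over both genotypes, 2.55% in WT and 0.839% in NT-KO. Of 4 B lymphocyte markers, all with values below 0, 3 were called lower in males over both genotypes and in WT, and 0 in NT-KO. Their sum was 1.63 and 1.18 CPM in WT males, 1.73 and 2.94 in NT-KO males, 7.46 and 7.16 in WT females, and 2.97 and 4.97 in NT-KO females. The 4 T lymphocyte markers, with Cd3g the most abundant, summed to 0.550 to 1.12 CPM in male and 1.76 to 3.50 CPM in female libraries, without overlap, and were too low to be tested. Taken singly, 8.26% of all tested genes had every male library below every female library. Called higher in males were 1.95% of all tested genes over both genotypes, 2.13% in WT and 0.945% in NT-KO. Of 5 erythroid markers 2 were called higher in males over both genotypes, 4 in WT and 1 in NT-KO. They summed to 953 and 443 CPM in WT males, 373 and 371 in NT-KO males, 185 and 181 in WT females, and 318 and 170 in NT-KO females, with the globin gene Hbb-bs the most abundant. The part of these cells in the Cyp2d values was not tested.

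Markers of kidney and pancreas were also looked at. Of 5 kidney tubule markers, Slc34a1, Umod, Kap and Slc22a6 had at most 3 counts in every library, and Lrp2, the most abundant, was called higher in males, at a mean of 1.48 CPM in males and 0.0757 in females. The 5 summed to 1.38 and 0.612 CPM in WT males, 1.69 and 2.37 in NT-KO males, 0.0547 and 0.0737 in WT females, and 0.0698 and 0.153 in NT-KO females. Of 5 pancreas acinar markers, Cpa1, Prss2, Pnliprp1 and Amy2b had at most 3 counts in every library, and Cela1 was called higher in males (1.02, SE 0.16, adjusted p = 0.00856). The 5 summed to 38.8 and 27.9 CPM in WT males, 34.4 and 37.3 in NT-KO males, 20.9 and 15.6 in WT females, and 13.7 and 18 in NT-KO females. Their part in the Cyp2d values was not tested.

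The genes whose pattern over the 8 libraries was most like a member were found by Pearson's r of log2 CPM among all tested genes outside the family. The 8 points are 4 male and 4 female libraries, so for members with a large sex difference r mostly measures that gap, and no p is given. For Cyp2d9 the closest were Cspg5, the Y-linked Kdm5d and Mup-ps19 (r = 0.993 each), and for Cyp2d12 Gtpbp4-ps4 (r = 0.996), Etfbkmt (r = 0.993) and Mup20 (r = 0.993). Cyp2d11 was nearest to Mup-ps22 (r = 0.992), Mup6 (r = 0.985) and the complement gene C8a (r = 0.984). For Cyp2d10 they were Gcnt4 (r = 0.983), Gnl3 (r = 0.973) and Ubr2 (r = 0.971), for Cyp2d26 Sh3yl1 (r = 0.988), Anapc5 (r = 0.976) and Kcnq1 (r = 0.973), for Cyp2d22 Ppp1r3e (r = 0.955), Stox2 (r = 0.946) and Ppp1r15a (r = 0.935), and for Cyp2d40 Cybc1 (r = 0.963), Cwc25 (r = 0.963) and Slc30a10 (r = 0.958). Among the members themselves, Cyp2d9 and Cyp2d12 had r = 0.99, Cyp2d9 and Cyp2d11 0.93, Cyp2d9 and Cyp2d10 0.87, and Cyp2d9 and Cyp2d26 -0.77.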

How the data were processed

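According to the methods and the submitters' processing notes, the authors trimmed reads with cutadapt, aligned them to GRCm38 with STAR 2.6.1a, and used featureCounts with Ensembl annotation. The deposited values are raw counts per gene, and the strand setting is not given in the sources used here. From them, CPM and tests were computed with R 4.3.3 and edgeR 4.0.16 (limma 3.58.1). Kept were genes that reached 1 CPM in 2 or more libraries, without rRNA, miRNA and mitochondrial genes (13117 of 49671), library sizes were scaled by TMM, and a quasi-likelihood model with a mean per group was fitted to all 8 libraries. A gene was called at a Benjamini-Hochberg adjusted p of at most 0.05 with a log2 fold change beyond 1 either way, and on the adjusted p alone for the difference between the sexes. SE is the log2 fold change over the square root of F. Log2 CPM used a prior count of 2. The script was tested on simulated data. Names, positions and lengths came from GENCODE M21 (GRCm38), which matched 49326 gene IDs, and 0 columns were left unused.

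The members and the gene lists were chosen with earlier results of these data known. Named were all members, other Cyp2d genes, label checks, neighbours within 250 kb, the 3 most alike genes per member and at most the 4 most abundant of each list, and beside these 4 regulators called by sex, chosen after their values were seen. Single genes of 2 lists are not reported here. The lists were electron supply and heme, regulators, male-biased and female-biased genes, other P450s, ER chaperones, clock genes and cell type markers. The settings varied were the test (likelihood ratio test, or DESeq2 1.42.0), RLE size factors, library size only, other filters, a replicate block, other thresholds, only the libraries compared, and each library left out. The length of the longest coding transcript for RPKM and the left-out libraries for Cyp2d41-ps were added after seeing the data.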

Additional observations from a re-analysis of the deposited data

How the results depend on the processing

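Of 656 alternative values for the 42 log2 fold changes of the members, 600 kept direction and call, 10 lost the call, 3 gained it and 43 changed sign. The calls of Cyp2d9 and Cyp2d12 held under every alternative run, at 5.65 to 5.95 and 4.47 to 4.90 over both genotypes. All lost calls were of Cyp2d11, in WT (8 alternatives) and over both genotypes (2 alternatives), and at an adjusted p of at most 0.01 it was called in neither. Gained were Cyp2d11 in NT-KO with the likelihood ratio test (adjusted p = 0.0267) and with no filter beyond 1 count (0.0115), and Cyp2d40 for the difference between the sexes with no such filter (0.0314), where the count of members called rose from 0 to 1. With library size only, the summed CPM was 3293 in place of 3537 in WT males, 3498 in place of 3582 in NT-KO males, 2215 in place of 2100 in WT females and 2203 in place of 2116 in NT-KO females, so the gap between the sexes was smaller. RPKM by the longest coding transcript kept the order of members in every group, but moved some values by over 1.5 times, in WT males from 611 to 948 for Cyp2d9, from 4.34 to 10.2 for Cyp2d12 and from 56.4 to 87.6 for Cyp2d40, and changed which neighbours overlap. The male log2 fold change over female stayed on the same side of 0 for all members with RLE size factors and with library size only, over both genotypes. The small number of libraries per group limits what can be detected.

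All 43 changes of sign were in values that had not been called. With single libraries left out, the male over female log2 fold change of Cyp2d22 ranged from -0.21 to 0.14 in WT, from -0.22 to 0.14 in NT-KO and from -0.13 to 0.055 over both genotypes, and that of Cyp2d40 in NT-KO from -0.70 to 0.075. For NT-KO against WT in males the ranges were -0.17 to 0.25 for Cyp2d9, -0.19 to 0.057 for Cyp2d10, -0.24 to 0.36 for Cyp2d12, -0.11 to 0.26 for Cyp2d22 and -0.25 to 0.46 for Cyp2d26, and in females -0.33 to 0.39 for Cyp2d11, -0.77 to 0.088 for Cyp2d12 and -0.026 to 0.16 for Cyp2d26. For the difference between the sexes they were -0.094 to 0.15 for Cyp2d10, -0.63 to 0.091 for Cyp2d11, -0.035 to 0.82 for Cyp2d12, -0.19 to 0.18 for Cyp2d22 and -0.31 to 0.39 for Cyp2d26. Other settings gave 0.0012 for Cyp2d10 in males (library size only). For Cyp2d11 in females they gave 0.0031 (no filter beyond 1 count), 0.0016 (filterByExpr) and 0.00103 (replicate block), and for the Cyp2d22 difference between the sexes -0.0013 (DESeq2), -0.0013 (RLE size factors), -0.00095 (no filter beyond 1 count) and -0.015 (filterByExpr). The cause was not tested.

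The number of all genes called depended more on the settings, and the cause was not tested. In WT it was 614, against 1039 with the likelihood ratio test, 987 with DESeq2, 1736 with no filter beyond 1 count, and 159 at an adjusted p of at most 0.01. In NT-KO it was 234, against 410, 401, 825 and 121, and over both genotypes 550, against 1241 with no filter and 309 at 0.01. NT-KO against WT in males gave 2 genes, against 205, 218 and 667, and 4 with library size only and 6 with filterByExpr. In females it gave 1, against 11, 5 and 172, and the difference between the sexes gave 2, against 46, 62 and 552. With only the libraries compared, 0 genes were called between genotypes in either sex. With no minimum fold change 1028 were called over both genotypes. Single libraries left out gave 181 to 725 genes in WT, 112 to 233 in NT-KO, 364 to 561 over both genotypes, 2 to 21 in males, 0 in females and 1 to 7 for the difference.

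The samples share a replicate number across groups, and nothing in the labels says that it marks a common animal, litter or day. Correlations of same-numbered samples' deviations ran from -0.18 to 0.21 over 6 pairs of groups. With a replicate block 2, 2, 3, 0, 0 and 0 members were called in the 6 comparisons, against 3, 2, 3, 0, 0 and 0 without it. Of all genes 523, 205, 537, 2, 1 and 2 were called with the block, against 614, 234, 550, 2, 1 and 2 without it. Cyp2d11 in WT was at an adjusted p of 0.0585 under the block.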
